A study of Homo sapiens with 12 samples.

Results

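Neutrophil secondary and tertiary granule genes were followed in chromatin accessibility data (ATAC-seq) from KO-52, an acute myeloid leukaemia cell line with mutations in both alleles of CEBPA. The 8 genes were LTF, CAMP, LCN2, PGLYRP1, MMP8, MMP9, CEACAM8 and OLFM4, out of 20033 protein-coding genes in the annotation. For each gene, every peak lying in the gene body or within 50 kb on either side was taken, which gave 172 of the 355515 regions that held a peak in at least 1 of the 6 deposited peak lists. The cells had been transduced with an empty vector (EV), with the long CEBPA isoform p42 or with the short isoform p30, and were treated with DMSO or with tunicamycin (Tm), a blocker of N-glycosylation, at 2 µg/mL for 8 h. All 3 lines kept the endogenous mutant CEBPA alleles, and the DMSO and Tm arms of a line differed only in the drug. For this line the study's methods describe long-term expression from constructs fused to an oestrogen-receptor domain, with sorting on GFP and 4-hydroxytamoxifen, but do not state which construct the ATAC-seq cells carried. Each condition had 2 replicates of 50000 nuclei, 12 libraries in all, and the authors pooled them before calling peaks, so each condition is 1 list and no replicate spread can be given.

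Secondary (specific) and tertiary (gelatinase) granules are filled one after the other as a neutrophil precursor passes from the myelocyte to the band stage. Their genes are silent or weak in blasts and are switched on late in granulocyte development, a step in which transcription factors of the C/EBP family, C/EBP-alpha early and C/EBP-epsilon late, play a central part. CEBPA p42 has the full transactivation region, and p30 starts at an internal codon and lacks part of it.

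A peak's place was expressed as its percentile within its own list, where 100 is the peak with the highest significance by q-value. The number of tags (reads piled up at the peak summit) was solved from the fold enrichment and p-value of each peak and is given as scaled tags, per 10000000 tags of the list, with an exact Poisson 95% interval, which covers counting error only. The lists held 187704 to 254239 peaks at estimated depths of 22250000 to 29980000 tags, and the p42 DMSO list was the deepest and the longest. In all 6 lists 8 of 8 myeloid marker genes (SPI1, CD33, PTPRC, MPO, CSF3R, KIT, CD34 and LYZ) had a promoter peak and 0 of 3 erythroid markers did. The same held for 3 of 3 T cell, 2 of 3 B cell and 2 or 3 of 3 epithelial markers, so a promoter peak alone did not separate cell types, and of 2 liver markers 1, ALB, had a promoter peak in the p42 lists only.

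The sequences of 5 regions around LTF and MMP8 are shown first. All of them hold a match of the kinds below and a difference between p42 and p30 described later. Regions without such a match also differed, and these are described later without their sequence. Each printed sequence is 201 bases centred on the summit of the strongest peak, in hg38, forward strand. Capitals mark matches, on either strand, to the C/EBP palindrome TTGCNNAA, the composite C/EBP:AP-1 element TGTTGCAA or the ATF4-type C/EBP element TGATGCAA. The first was found in 13.1% of all 355515 regions searched in the same way, the second in 1.16% and the third in 1.25%. LTF 5.0 kb upstream lies at chr3:46469808-46470008, in an intron of the longest LTF transcript, and holds 2 neighbouring C/EBP matches. LTF 71.2 kb downstream lies at chr3:46393626-46393826 and holds a C/EBP:AP-1 match within 3 bases of its summit. MMP8 15.5 kb lies at chr11:102709319-102709519, past the 3′ end of the gene, with 1 C/EBP match. MMP8 43.8 kb lies at chr11:102681051-102681251 with 2 C/EBP matches. MMP8 24.6 kb upstream lies at chr11:102749478-102749678, where 2 C/EBP:AP-1 matches on opposite strands overlap to form 1 run of 10 bases.
LTF 5.0 kb upstream: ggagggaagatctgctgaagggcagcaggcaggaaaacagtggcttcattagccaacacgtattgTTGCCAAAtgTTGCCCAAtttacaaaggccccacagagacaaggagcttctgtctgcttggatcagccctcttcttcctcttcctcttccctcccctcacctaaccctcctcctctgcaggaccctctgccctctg
LTF 71.2 kb downstream: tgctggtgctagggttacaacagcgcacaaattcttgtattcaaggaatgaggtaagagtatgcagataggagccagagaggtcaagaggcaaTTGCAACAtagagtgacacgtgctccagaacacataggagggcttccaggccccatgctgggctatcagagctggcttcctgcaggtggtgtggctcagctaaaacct
MMP8 15.5 kb downstream: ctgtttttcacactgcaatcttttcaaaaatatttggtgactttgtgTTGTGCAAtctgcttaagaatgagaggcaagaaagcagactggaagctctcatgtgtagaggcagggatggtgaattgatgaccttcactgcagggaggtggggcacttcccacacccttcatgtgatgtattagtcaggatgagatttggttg
MMP8 43.8 kb downstream: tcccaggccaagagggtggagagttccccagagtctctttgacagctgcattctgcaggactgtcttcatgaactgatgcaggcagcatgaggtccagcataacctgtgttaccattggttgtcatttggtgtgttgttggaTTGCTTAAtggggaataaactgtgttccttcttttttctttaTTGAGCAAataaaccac
MMP8 24.6 kb upstream: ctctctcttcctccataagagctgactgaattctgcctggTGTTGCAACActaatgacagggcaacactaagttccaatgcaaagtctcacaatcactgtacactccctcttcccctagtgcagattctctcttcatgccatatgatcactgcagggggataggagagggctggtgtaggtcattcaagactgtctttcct

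The window of each granule gene held peaks in all 6 lists of KO-52 cells. The shares of all regions given here are over the whole genome, not over windows of other genes. Of the 172 regions, 78 (45.4%) held a peak in all 6 lists, against 32.2% of all regions, and 48 (27.9%) held one in a single list, against 34.3%. A peak was present at 107 regions in EV, 119 in p30 and 135 in p42 cells with DMSO, and at 105, 95 and 113 with Tm. The gene windows differed in how many regions they held, from 11 at CAMP and 12 at PGLYRP1 to 29 at MMP9 and 40 at LTF, where a median protein-coding gene had 23. Part of this belonged to other genes: 30 regions lay within 1 kb of a start site of a neighbour, 13 of them in the LCN2 window (PTGES2, BBLN, CIZ1, DNM1 and SLC25A25). Within 10 kb of a granule gene lay 59 regions, 25 of them over a gene body, and 11 lay within 1 kb of a granule gene's own start sites. In the heat map of the regions close to the 8 genes, LTF, CAMP, MMP8, MMP9 and PGLYRP1 each had regions that ranked high in all lists, while OLFM4 had almost none.

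**Figure D1:**
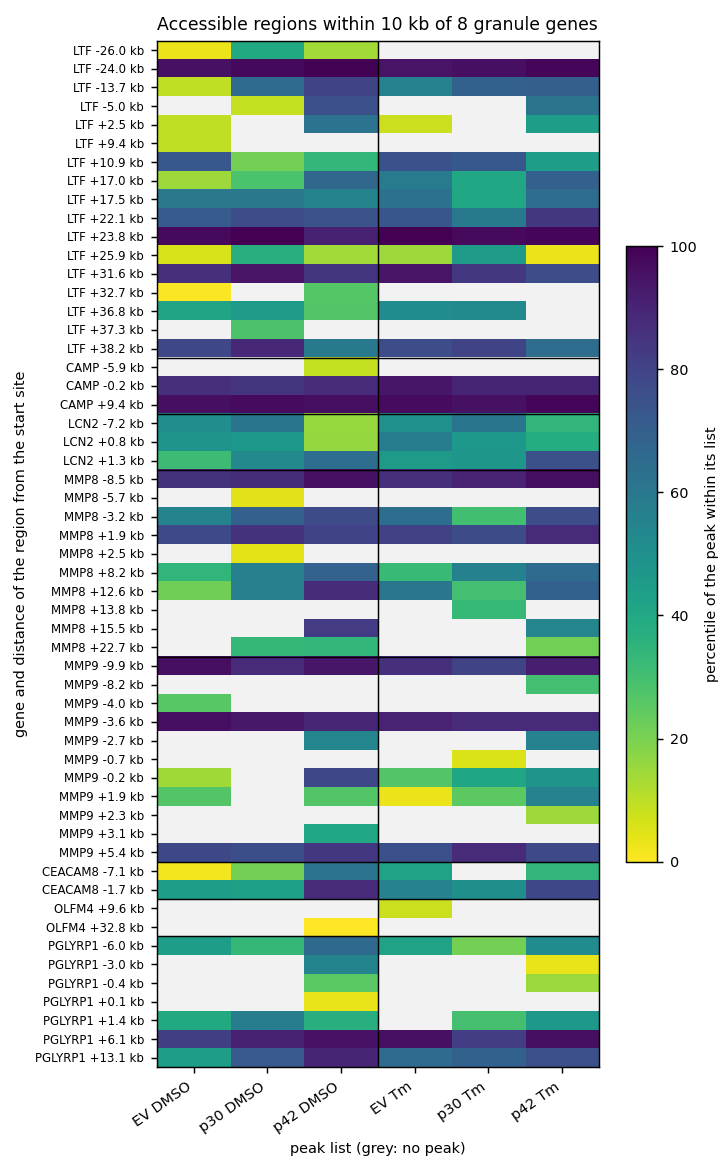
Heat map of the percentile (colour, 0 to 100) of the peak at each of 55 regions within 10 kb of the 8 genes, leaving out neighbours' promoters; rows are regions, named by gene and distance in kb of the summit from the canonical start site, columns are the 6 pooled lists, and grey means no peak. The rows at 24.0 kb upstream of LTF, 9.4 kb beyond the CAMP start and 3.6 kb upstream of MMP9 are dark in all 6 columns, while those at 15.5 kb for MMP8 and 2.7 kb upstream of MMP9 are coloured in the p42 columns only.

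At the promoters, taken as 1 kb around any annotated start site, the p42 lists held a peak at 6 of the 8 genes in DMSO and 6 in Tm, against 82.1% and 80.2% of all protein-coding genes. The EV lists held 5 and 5 (79.8% and 79.7% of all genes) and the p30 lists 4 and 5 (80.5% and 79.1%). The promoters of LTF (through an internal start site), CAMP, LCN2 and MMP8 had a peak in every list, and those of CEACAM8 and OLFM4 in none. MMP9 lacked a promoter peak in the p30 DMSO list only, and PGLYRP1 had one in the p42 lists only. With start sites limited to the canonical one, 2 to 4 genes per list had a promoter peak, and LTF and MMP8 had none in any list.

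LTF encodes lactoferrin, the iron-binding protein of secondary granules, at chr3:46435645-46485234 on the minus strand. Its canonical start site, at position 46464905, had no peak within 1 kb in any list. The region 5.0 kb upstream of it had no peak in the EV lists. It stood at percentile 8.80 in p30 DMSO and 75.4 in p42 DMSO, and at 61.4 in p42 Tm with no peak in p30 Tm. These were 5 tags in p30, or 1.88 scaled tags (0.612 to 4.40), and 16 in p42, or 5.34 scaled tags (3.05 to 8.67). This was the widest p42 over p30 gap of the LTF window, yet the ratio of the scaled tags, 2.83, had a counting interval of 0.991 to 9.88 and so included equality.

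Another 2 LTF regions inside the gene ranked highest in p42 with DMSO. The region 2.5 kb into the gene had percentiles of 9.43 in EV and 62.0 in p42 DMSO, 8.06 and 44.1 with Tm, and no peak in either p30 list. The region 13.7 kb upstream ranked at 9.43 in EV, 65.2 in p30 and 79.7 in p42 with DMSO, and at 55.8, 69.0 and 69.9 with Tm. The tags in DMSO were 5 in EV and 17 in p42, a ratio of 2.52 (0.894 to 8.75). The downstream C/EBP:AP-1 region at 71.2 kb had percentiles of 27.4 in EV, 14.3 in p30 and 71.7 in p42 DMSO, where p42 had 18 tags against 7 in p30, and 30.1 in p42 Tm, with no peak in EV and p30 Tm.

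The strongest LTF regions did not follow p42. The region 23.8 kb into the gene, next to an internal start site, ranked from 90.8 in p42 DMSO to 99.9 in p30 DMSO, with 30 against 53 tags, and the ratio of p42 to p30 was 0.501 (0.309 to 0.798). With Tm the same region had percentiles of 97.5 in p30 and 98.4 in p42, and a ratio of 0.956 (0.594 to 1.54). The region 24.0 kb upstream ranked from 94.6 to 99.4 over the 6 lists, with a ratio of p42 to p30 of 0.998 (0.634 to 1.58) in DMSO. The region 38.2 kb from the start, past the 3′ end, ranked lower in p42 (59.6) than in EV (78.8) and p30 (89.0) with DMSO, a ratio of 0.379 to p30 (0.176 to 0.770). Near internal start sites of LTF, the region 22.1 kb into the gene ranked from 59.4 to 83.8 over the lists, and that at 9.4 kb had a peak in EV DMSO alone, at 9.43. Counting all 40 LTF regions, 6 were open (held a peak) in p42 but not p30 with DMSO, against 25% of all regions. The reverse held for 3, against 11.8%.

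CAMP encodes the precursor of LL-37, the only human cathelicidin, at chr3:48223347-48225491. Its promoter region, 0.17 kb upstream of the canonical start, ranked at 86.1 in EV, 84.5 in p30 and 88.1 in p42 with DMSO, and at 94.1, 89.8 and 89.5 with Tm. The lists did not separate there: p42 and p30 had 31 and 25 tags in DMSO, a ratio of 1.10 (0.627 to 1.94). A PU.1 match (GAGGAAGT, in 6.86% of all regions) lay within 22 bases of that summit. The region 9.4 kb into and beyond the gene ranked from 95.4 to 98.7, and the highest of the window, from 97.0 to 99.6, was the promoter of the neighbour CDC25A. The widest p42 over p30 gap was at 28.9 kb upstream, with 43.8 in EV, 53.4 in p30 and 79.3 in p42, and 49.9, 42.9 and 78.3 with Tm, at a tag ratio of 1.59 (0.697 to 3.86) in DMSO. Of the 11 CAMP regions 8 were open in all 6 lists.

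LCN2 encodes lipocalin-2, which binds bacterial siderophores, at chr9:128149071-128153453. Its regions near the start sites went in opposite directions. At 0.81 kb into the gene, over a coding exon, the percentile was 48.1 in EV, 46.6 in p30 and 15.6 in p42 with DMSO, and 57.5, 46.5 and 38.2 with Tm. At 1.3 kb, in an intron, it was 31.3, 52.9 and 63.8 with DMSO, and 45.4, 46.9 and 75.1 with Tm. The tags behind these ranks were few, 7 to 16, and all their intervals overlapped. The region 7.2 kb upstream had the largest p30 over p42 gap of the window, with 51.1 in EV, 61.1 in p30 and 15.6 in p42 DMSO, from 9, 11 and 6 tags. The widest gap the other way was 24.3 kb upstream, at a peak found in p42 DMSO alone, at percentile 39.8. The highest region of the window, 31.7 kb upstream, ranked at 77.9 in EV, 89.7 in p30 and 93.2 in p42 with DMSO.

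PGLYRP1 encodes a peptidoglycan recognition protein of the granules, at chr19:46019153-46023053 on the minus strand. Its promoter region 0.39 kb upstream had a peak in p42 cells only, at percentile 25.7 in DMSO and 15.2 in Tm. These were weak peaks of 7 and 6 tags, and an estimated 4 or 5 tags would have been called in the other 4 lists, so the depth could not separate p42 from the rest. A still weaker peak of 5 tags over the first coding exon was found in p42 DMSO alone. The region 3.0 kb upstream, with a PU.1 match, was likewise open in the p42 lists only, at 55.0 with DMSO and 3.51 with Tm. Some regions shared by the lists ranked higher in p42: 6.0 kb upstream, 43.8 in EV, 33.4 in p30 and 65.9 in p42 DMSO, and 13.1 kb downstream, 43.8, 72.0 and 89.8. The tag ratios of p42 to p30 were 1.52 (0.551 to 4.55) at the former and 1.45 (0.717 to 3.06) at the latter. In the PGLYRP1 window 3 of 12 regions were open in p42 but not p30 with DMSO, against 25% of all regions. The reverse held for 0, against 11.8%. The highest region of the window, at the promoter of the neighbour CCDC61, ranked from 98.6 to 99.8.

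MMP8 encodes the neutrophil collagenase, a secondary granule enzyme, at chr11:102711796-102727050 on the minus strand, and none of its regions lay at a neighbour's start site. The region 15.5 kb from its start, 2.08 kb past the 3′ end, had no peak in EV or p30 with either treatment. In p42 it stood at percentile 82.1 with DMSO and 54.3 with Tm, from 21 tags, 7.0 scaled (4.34 to 10.7), and 11 tags, 4.32 scaled (2.16 to 7.74). In each of the lists without a peak, an estimated 5 tags would have been called. This was the largest gap between p42 and p30 among the 172 regions.

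Several MMP8 regions held by all lists ranked highest in p42 with DMSO. The region 12.6 kb into the gene, over an untranslated exon near its 3′ end, had percentiles of 21.9 in EV, 56.3 in p30 and 87.3 in p42 with DMSO, and 60.8, 29.9 and 68.9 with Tm. Its tags were 6, 10 and 25 in DMSO, and the ratio of p42 to p30 was 2.21 (1.03 to 5.16). No C/EBP, C/EBP:AP-1 or ATF4-type match lay around its summit. The region at 43.8 kb, with 2 C/EBP matches, had 6.41 in EV, 52.4 in p30 and 84.9 in p42, from 5, 10 and 24 tags, and ratios of 3.56 to EV (1.33 to 11.9) and 2.12 to p30 (0.979 to 4.98). The region at 60.4 kb ranked at 75.5, 72.9 and 92.9 with DMSO and at 62.7, 76.2 and 88.9 with Tm.

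At 33.5 kb upstream of MMP8 the percentiles were 12.7 in EV, 47.9 in p30 and 70.8 in p42 with DMSO, and 40.3, 25.5 and 61.0 with Tm. At 35.6 kb upstream they were 46.1, 25.8 and 48.5 with DMSO, but 62.3, 63.6 and 47.5 with Tm, where p42 was lowest. The tag ratio of p42 to p30 at 35.6 kb in DMSO was 1.39 (0.492 to 4.23). Near an alternative start site 3.2 kb upstream of the canonical one, the percentiles were 55.4, 69.4 and 76.9 in DMSO and 64.0, 30.1 and 76.2 in Tm. With Tm, 8 tags in p30 and 17 in p42 stood behind these ranks, a ratio of p42 to p30 of 1.93 (0.789 to 5.16). The highest of the window, 8.5 kb upstream, ranked at 85.3 in EV, 87.1 in p30 and 95.7 in p42 DMSO. The region 24.6 kb upstream, with the overlapping C/EBP:AP-1 matches, was open with p42 alone, in DMSO and in Tm, but from 5 and 6 tags and at percentiles of 8.67 and 21.2. Of the 22 MMP8 regions 3 were open in p30 but not p42 with DMSO, against 11.8% of all regions. The highest of them, 45.0 kb away, stood at percentile 21.0.

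**Figure D2:**
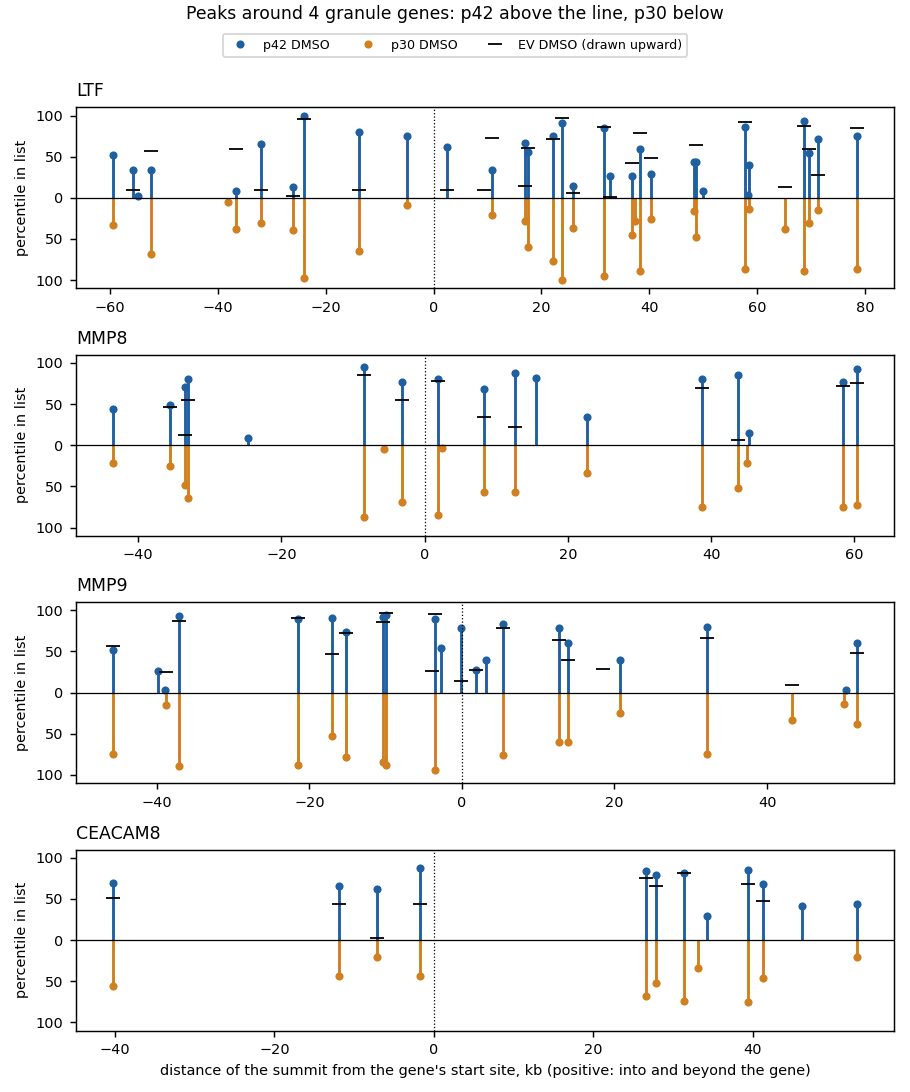
Maps of the peaks in the windows of LTF, MMP8, MMP9 and CEACAM8 with DMSO; the horizontal axis is the distance of the summit from the canonical start site in kb, the height is the percentile within the list, p42 is drawn upward, p30 downward and EV as a dash on the p42 side. MMP8 at 15.5 kb and MMP9 at 0.17 kb upstream have a p42 stem and no p30 stem below it.

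MMP9 encodes gelatinase B, the marker enzyme of tertiary granules, at chr20:46008908-46016561. Its promoter region, 0.17 kb upstream, ranked at 14.2 in EV and 78.3 in p42 with DMSO and had no peak in p30. With Tm it had a peak in all 3 lines, at 26.9 in EV, 40.9 in p30 and 48.4 in p42. The tags were 12 in EV and 31 in p42 with DMSO, 5.39 (2.79 to 9.42) and 10.3 (7.02 to 14.7) scaled tags, and 14, 16 and 19 with Tm. In p30 DMSO an estimated 10 tags would have been called at the local background, where 4 or 5 sufficed at PGLYRP1. The ratio of p42 to EV with DMSO was 1.92 (0.957 to 4.10) and that of p42 to p30 with Tm 1.08 (0.525 to 2.24), so both intervals included equality.

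A region 2.7 kb upstream of MMP9 was open in p42 only, at percentile 54.2 with DMSO and 55.8 with Tm. It had 19 and 20 tags, where an estimated 9 or 10 would have been called in the other lists. At 17.1 kb upstream the percentiles were 46.9 in EV, 52.9 in p30 and 90.4 in p42 with DMSO, and 44.4 in EV and 85.2 in p42 with Tm, with no peak in p30 Tm. The tag ratio of p42 to p30 there was 2.18 (1.11 to 4.52) in DMSO, without a C/EBP, C/EBP:AP-1 or ATF4-type match around the summit. Against these, the regions at 3.6, 9.9 and 21.5 kb upstream ranked from 79.4 to 96.3 over the 6 lists, and at 3.6 kb the percentile was 96.1 in EV, 93.5 in p30 and 89.4 in p42 with DMSO. A weak peak 0.67 kb upstream, at 5.43, was found in p30 Tm alone. Of the 29 MMP9 regions 7 were open in p42 but not p30 with DMSO, against 25% of all regions. The reverse held for 3, against 11.8%.

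CEACAM8 encodes CD66b, a surface glycoprotein stored in secondary granules, at chr19:42580243-42595055 on the minus strand. No list had a peak over the gene body or within 1 kb of a start site. The closest region, 1.7 kb upstream, had a peak in all lists, at percentiles of 43.8 in EV, 43.2 in p30 and 87.9 in p42 with DMSO, and 55.8, 50.3 and 78.3 with Tm. The tags were 8, 8 and 22 with DMSO and 10, 9 and 16 with Tm. The ratio of p42 to p30 was 2.43 (1.04 to 6.32) in DMSO and 1.61 (0.671 to 4.14) in Tm. This region held no C/EBP, C/EBP:AP-1 or ATF4-type match around its summit. The next region, 7.1 kb upstream and with a PU.1 match, ranked at 1.87, 21.0 and 62.0 with DMSO, from 4, 6 and 11 tags. Downstream of the gene, the region at 31.4 kb ranked from 74.1 to 88.7 over the lists.

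OLFM4 encodes olfactomedin 4, stored in the secondary granules of a subset of neutrophils, at chr13:53028813-53052057. OLFM4 was mostly closed: 20 regions lay in its window, 11 of them in a single list, and 4 were in all 6. Over the gene body the only peak was in EV Tm, at percentile 8.06. Its strongest region, 15.9 kb upstream, ranked from 90.5 to 96.9 in all lists and did not follow the isoform. The region 43.9 kb from the start had percentiles of 28.3 in EV and 61.0 in p42 with DMSO, and 35.5 and 69.0 with Tm, with no peak in the p30 lists. The reverse gap was at 24.0 kb upstream, with 41.1 in EV, 58.6 in p30 and 8.67 in p42 DMSO.

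**Figure D3:**
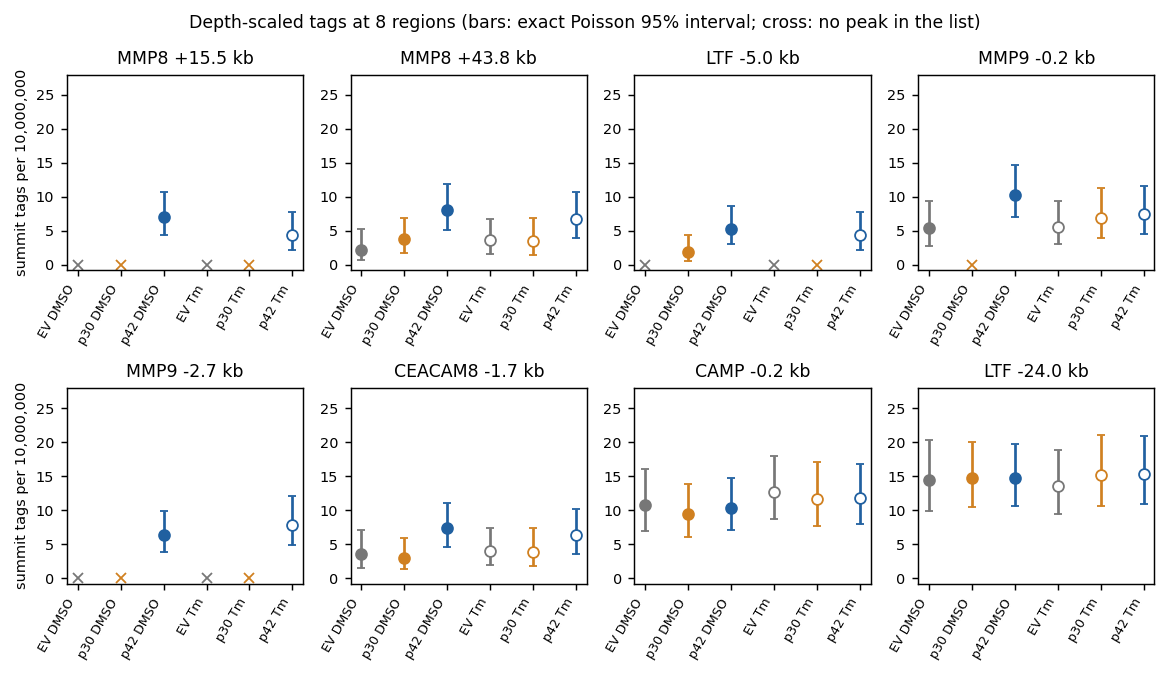
Tags per 10000000 tags of the list (points, with exact Poisson 95% intervals as bars) at 8 regions in the 6 lists; filled points are DMSO, open points Tm, grey is EV, orange p30 and blue p42, and a cross on the zero line means no peak in that list, not a count of 0. For MMP8 at 15.5 kb and for MMP9 at 2.7 kb upstream, points appear in the p42 lists only, while at the CAMP promoter and 24.0 kb upstream of LTF the 6 intervals overlap.

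Over the 172 regions together, 31 were open in p42 but not p30 with DMSO (18.0%), against 25% of all regions. The reverse was seen at 15 (8.72%), against 11.8%. At the 104 regions with a peak in both, the percentile was at least 20 points higher in p42 at 27 (26.0%), against 18.2% of all shared regions, and at least 20 points higher in p30 at 11 (10.6%), against 8.23%. The median difference was 7.35 points at the granule genes and 3.16 over all shared regions. Regions open in 1 of these lists alone were thus less frequent around the granule genes than over the genome in both directions. Gaps of at least 20 points at shared peaks were above the share of all shared regions in favour of p42, and slightly above it in favour of p30. Percentiles are ranks in lists of unequal length, so equal percentiles do not mean equal tags. At 45.0 kb upstream of LCN2 both lists had 8 tags, or 2.67 scaled in p42 and 3.02 in p30, yet the percentiles were 44.0 and 39.8. There were no replicates by which these gaps could be tested. When every list was cut to the same number of its strongest peaks, 17 of the 172 regions were open in p42 but not p30, against 13.4% of all regions. The reverse held for 19, against 12.8%. After scaling every list to the depth of the shallowest, 26 were open in p42 but not p30 (23.7% of all regions) and 15 the reverse (11.1%). The excess of p42 over p30 was thus present after depth scaling. Lists cut to equal length cannot show an excess in peak number, and its cause was not tested.

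The comparison with EV used the same p42 DMSO list and is not independent of that with p30. Regions open in p42 but not EV numbered 39 (22.7%, against 27.6% of all), and the reverse 11 (6.40%, against 8.74%). At 96 shared regions the percentile was at least 20 points higher in p42 at 28 (29.2%, against 22.8%) and higher in EV at 6 (6.25%, against 6.6%). Cells with p30 had a peak where EV had none at 26 regions (15.1%, against 14.6%), and the reverse at 14 (8.14%, against 8.91%), both near the share of all regions.

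**Figure D4:**
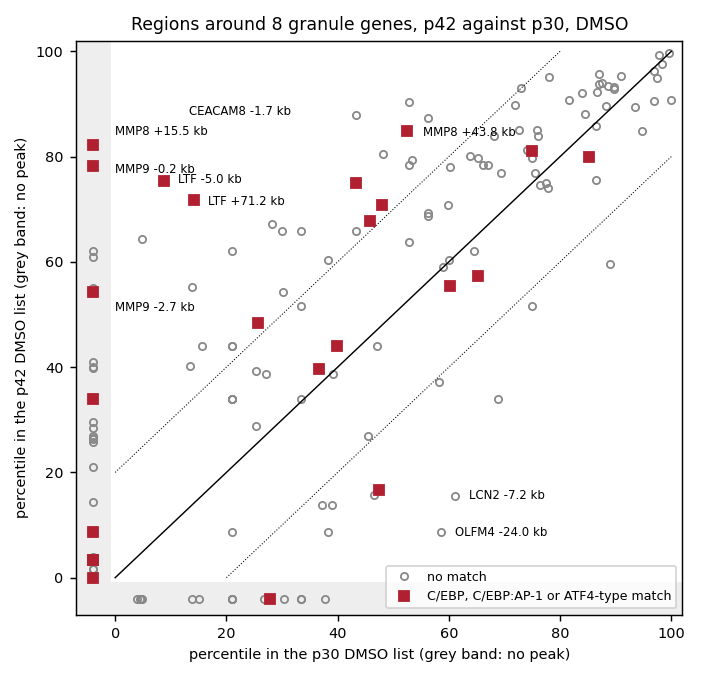
Percentile in the p42 DMSO list against the percentile in the p30 DMSO list for the 150 regions with a peak in at least 1 of the 2; grey bands hold regions with no peak in that list, the solid line marks equal percentiles and the dotted lines a gap of 20 points. Filled squares are the 23 regions with a C/EBP, C/EBP:AP-1 or ATF4-type match, and MMP8 at 15.5 kb, the MMP9 promoter and LTF at 5.0 kb upstream lie at the upper left.

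The widest p30 over p42 gaps of the remaining windows came from weak peaks. With DMSO, p30 stood at 37.7 at LTF 65.1 kb, 21.0 at CAMP 31.7 kb, 33.4 at MMP9 43.2 kb and 33.4 at CEACAM8 33.2 kb downstream, the last at the promoter of the neighbour CEACAM1, with no p42 peak at any of them and 6 to 9 tags in p30. At PGLYRP1, 1.4 kb into the gene, p30 stood at 58.1 and p42 at 37.2.

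The C/EBP palindrome was no more frequent around the granule genes than elsewhere, at 21 of 172 regions (12.2%, against 13.1% of all). Counting an absent peak as percentile 0, 10 of these 21 (47.6%) were at least 20 points higher in p42 than in p30 with DMSO, and 35 of the 151 without a match (23.2%). Over all regions the same shares were 37.7% and 22.6%. Among the 10 were MMP8 at 15.5 and 43.8 kb downstream and 33.5 and 35.6 kb upstream, and LTF at 5.0 and 55.7 kb upstream. CEACAM8 at 41.3 kb downstream and PGLYRP1 at 45.8 kb upstream were also among them. So were the MMP9 promoter region and the region upstream of it that was open in both p42 lists only. Of the others close to a gene, LTF at 17.5 kb ranked at 60.1 in p30 and 55.3 in p42, and LTF at 37.3 kb had a peak in p30 DMSO alone, at 27.9. The C/EBP:AP-1 element lay in 2 regions (1.16%, as over all regions) and the ATF4-type element in 2 (1.16%, against 1.25%), MMP8 at 1.9 kb into the gene and at 35.6 kb upstream. RefSeq promoter sequences of 300 bases (GRCh38.p14) matched 6 of the 8 genes. A C/EBP match lay in 1 sequence each of LTF, LCN2 and MMP8, and in 10.5% of 35116 promoters. The other LTF sequences had none. Of the starts with a match, only that of LCN2 had a peak within 1 kb. The CAMP sequence held an ATF4-type match, as did 0.866% of promoters. MMP9 and PGLYRP1 had no sequence in that set, so their promoters were not searched there.

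Around the granule genes, as over all regions, more regions lost a peak with Tm than gained one in the lines with p42 and p30. In p42 cells 30 regions lost their peak (17.4%, against 21.6% of all) and 8 gained one (4.65%, against 9.08%). In p30 cells 31 lost it (18.0%, against 15.2%) and 7 gained one (4.07%, against 8.56%). In EV cells the counts were 18 lost (10.5%, against 10.1%) and 16 gained (9.30%, against 11.7%). Both CEBPA lines had shallower lists with Tm than with DMSO, at 25440000 against 29980000 tags in p42 and 23080000 against 26530000 in p30, while EV had 25130000 against 22250000. After scaling every list to the depth of the shallowest, p42 lost 25 (19.7% of all regions) and gained 8 (9.37%), and p30 lost 31 (13.9%) and gained 7 (8.86%). In lists cut to the same number of peaks, EV also lost more than it gained, 21 (11.2% of all regions) against 10 (9.48%). There p42 lost 20 (11.5%) and gained 13 (8.75%), and p30 lost 27 (11.3%) and gained 8 (9.93%).

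The p42 and p30 lines were also compared under Tm. With Tm 26 regions were open in p42 but not p30 (15.1%, against 17.5%), and 8 the reverse (4.65%, against 10.1%). At 87 shared regions the percentile was at least 20 points higher in p42 at 18 (20.7%, against 16.5%) and in p30 at 8 (9.2%, against 8.84%). MMP8 at 15.5 kb and MMP9 at 2.7 kb upstream were in the p42 lists alone with both treatments. The p42 tags did not separate the treatments at either, with Tm to DMSO ratios of 0.617 (0.269 to 1.34) at MMP8 and 1.24 (0.628 to 2.46) at MMP9.

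Another 16 genes of the neutrophil granule programme were counted in the same way at their promoters. With DMSO the promoter was open at 13 of the 16 in p42, against 82.1% of all protein-coding genes. It was open at 9 in p30 and at 9 in EV, against 80.5% and 79.8%. With Tm the p42 list held 12, the EV list 10 and the p30 list 9, against 80.2%, 79.7% and 79.1%. With DMSO the 4 promoters open in p42 alone were SLPI (a leukocyte protease inhibitor), at percentile 70.6, HP (haptoglobin) at 58.8, CRISP3 at 44.0 and ARG1 (arginase 1) at 21.0. With Tm, SLPI stood at 59.7, HP at 71.5 and ARG1 at 21.2 in p42, CRISP3 had no peak, and HP was also open in EV, at 8.06. TCN1, the vitamin B12 binder of secondary granules, was open in all lists and ranked at 34.2 in EV, 43.2 in p30 and 75.0 in p42 with DMSO, and at 49.9, 42.9 and 72.1 with Tm. None of the 16 promoters was open in p30 but not p42 with DMSO. The shares of all protein-coding genes with a promoter open in p42 but not p30, or the reverse, were not computed. These counts therefore have no such background, and the p42 DMSO list was the deepest and the longest.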

How the data were processed

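ATAC-seq (transposition of open chromatin by Tn5, 50000 nuclei per replicate) was analysed from 6 peak lists. Per the labels and the study's methods, the authors used Trim Galore 0.6.6 for trimming, Bowtie2 2.4.4 for alignment (hg38) and Picard to drop duplicates, and called MACS2 peaks on the 2 pooled replicates of a condition. A Tn5 shift or mitochondrial filter is not given in the sources used here. The deposited values are fold enrichment (a ratio), −log10 p and −log10 q, at q of 0.05, and the summit; none is normalized between conditions.

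Peaks overlapping by at least 1 base were merged over the lists. Percentiles rank −log10 q. Whole tag numbers were solved from fold and p (100% of peaks within 0.001 in −log10 p) and depth from the lowest background with a genome of 2700000000 bases. Tags at a summit were chosen as the highest point of each list, and intervals cover counting error only. The steps were tested on simulated data. Gene models are GENCODE 44. Python 3.11.15, scipy 1.17.1. With 1 pooled list per condition no test was made. The share over all regions or genes stands beside the counts of each comparison, except those of single gene windows and of promoters open in p42 alone or not in p42. The genes, lists and tests were chosen with earlier results of these data known. Regions were named by rule: near a start site, the highest percentile, the largest gaps between p42 and p30 with DMSO, or C/EBP matches within 10 kb; others were chosen after their values were seen. Sequences of some regions are not reported here.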

Additional observations from a re-analysis of the deposited data

Results flagged for a closer look

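At 5 regions the percentile moved by at least 20 points in opposite directions with Tm in 2 lines, among regions with a peak in all 4 lists concerned. Each line is 1 pooled list per treatment, so the differences were not tested. The region 20.8 kb upstream of OLFM4 rose by 41.3 points in p30 cells, changed by -27.2 in p42 cells and by -40.4 in EV cells. In DMSO it had 20 tags in EV, 7 in p30 and 15 in p42, and in Tm 11, 12 and 10. The region 1.9 kb into MMP9 rose by 28.8 in p42 and changed by -24.2 in EV, from 14 to 19 and from 12 to 9 tags. The region 7.1 kb upstream of CEACAM8 changed by -28 in p42 and rose by 40.6 in EV, from 11 to 7 and from 4 to 8 tags. The region 12.6 kb into MMP8 changed by -26.4 in p30 and rose by 38.9 in EV, from 10 to 7 and from 6 to 11 tags. The region 33.5 kb upstream of MMP8 changed by -22.4 in p30 and rose by 27.6 in EV, from 10 to 8 and from 6 to 11 tags. Such opposite moves were found at 1 of 83 granule gene regions for p42 and p30 (1.20%, against 1.72% of all regions), 2 of 85 for p42 and EV (2.35%, against 2.29%) and 3 of 79 for p30 and EV (3.80%, against 2.45%).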

How the results depend on the processing

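No paired analysis was possible because each deposited list pools the 2 replicates of its condition; for the same reason no replicate could be left out. Requiring a −log10 q of at least 5 left 7 regions open in p42 but not p30 (6.59% of all regions) and 0 the reverse (2.03%), 11 in p42 but not EV (7.84%) and 1 the reverse (1.5%), all with DMSO. With Tm the same filter left 0 gained (1.21% of all) and 5 lost (3.91%) in p42, 2 (1.24%) and 4 (2.58%) in p30 and 2 (2.02%) and 4 (1.46%) in EV. Cutting each list to its 187704 strongest peaks left 17 regions open in p42 but not p30 (13.4%), 23 in p42 but not EV (13.8%) and 18 the reverse (12.8%), with 13 gained with Tm in p42 (8.75%) and 10 in EV (9.48%). In windows of 25 kb, which hold 99 of the 172 regions and leave the shares over all regions as they were, the DMSO counts were 18 for p42 but not p30, 6 for the reverse, 18 for p42 but not EV and 4 for the reverse. There Tm gained 3 and lost 11 in p42, lost 16 in p30, and gained 6 and lost 9 in EV. Asking a peak to cover 50% of the region or of the widest peak gave 25 regions in p30 but not p42 (15.1%), 47 lost in p42 (28.6%) and 12 gained in p30 (10.2%). Promoters of 300 bp were open at 3 genes in EV DMSO, 2 in EV Tm, 1 in p30 DMSO, 2 in p30 Tm, 3 in p42 DMSO and 3 in p42 Tm, and canonical starts at 3, 3, 2 and 3 genes in the EV and p30 lists. Of 62 counts under an alternative, 25 stayed within 1.5 times, among them all 10 with the depth-scaled threshold. Of 92 promoter percentiles under another rank, 6 moved by 20 points or more, all at MMP9, by up to 44.1. The widest p42 over p30 gaps of the 8 windows rested on 11 to 31 tags in p42. Of the 3 with a peak in both lists, 1, at CEACAM8, had a tag ratio whose counting interval excluded equality. Among the 104 regions with a peak in both lists, intervals excluded equality in both directions. They lay above it only at CEACAM8 (1.04 to 6.32), MMP8 (1.03 to 5.16) and MMP9 (1.11 to 4.52). They lay below it only at LTF, in regions with 0.309 to 0.798 and 0.176 to 0.770. The intervals were not adjusted for the number of regions compared. The spread between replicates is unknown.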

Other observations

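The ranking measure was changed for promoter regions only, which CEACAM8 and OLFM4 lack. All 6 percentiles that moved by 20 points or more belonged to MMP9. At its promoter the 5 lists with a peak had percentiles of 14.2 to 78.3 by q-value, and ranking by summit tags instead gave 90.2 in p42 DMSO, 55.1 in EV DMSO, 60.9 in EV Tm, 67.4 in p30 Tm and 75.4 in p42 Tm. Ranking by fold enrichment gave 20.2 in p42 Tm.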
